A study of Mus musculus with 18 samples.

Results

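A contrast labelled as the withdrawal of leukemia inhibitory factor (LIF) for 8 h, in the absence of retinoic acid (RA), was read from 4 of the 18 arrays of the series. The LIF-induced genes used to check it went against that label, reading low on the arrays labelled with LIF, so the arrays are named by their labels and the contrast is not called a withdrawal below. Each array held total RNA of mouse AB1 embryonic stem (ES) cells, either wild type or with both alleles of Cyp26a1, a cytochrome P450 that degrades RA, disrupted (CYP26A1-/-, here "knockout"). The 4 arrays were chosen by their titles: for each genotype, the 1 control array labelled as kept 8 h without LIF and the first, unnumbered control array labelled as kept 8 h with LIF. They are called the minus-labelled and the plus-labelled arrays. In wild type 2 controls with LIF have a title without a replicate number; the one used has a title of the same form as the minus-labelled array, and the other is counted as control 2. The remaining 14 arrays were all labelled as with LIF: 4 further controls at 8 h (2 per genotype), 6 arrays of cells given 100 nM RA for 8 h (3 per genotype) and 4 of cells given 100 nM RA for 72 h (2 per genotype). All cells share the AB1 background, and the labels do not say how many knockout clones were used or whether feeder cells were present. Among these 4 arrays, each combination of genotype and LIF label held 1 array. A difference within a genotype thus had no replicate of its own. The 4 further controls with LIF were kept apart from the plus-labelled arrays by choice. Earlier results of these data had shown Socs3, a LIF-induced gene, far lower on the plus-labelled arrays. The error was taken from the spread among replicate arrays of the other groups, these further controls included.

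LIF is a cytokine of the interleukin-6 family that binds a receptor made of LIFR and gp130, the product of Il6st. The bound receptor activates JAK kinases, which phosphorylate the transcription factor STAT3, and STAT3 then enters the nucleus and induces genes that hold mouse ES cells in the naive, self-renewing state. Socs3 is a direct STAT3 target whose product blocks the receptor and JAK, so it works as a feedback inhibitor, and its transcript is a short-lived reporter of LIF signalling. When LIF is removed, mouse ES cells leave the naive state towards a formative and then primed state marked by factors such as Otx2.

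STAT dimers bind the palindrome TTCNNNGAA, where N is any base. The Socs3 promoter is shown because Socs3 is the gene on which the LIF labels were checked. The sequence, from RefSeq (GRCm38.p6), runs from 250 bases before to 50 bases after the transcription start on the minus strand of chr11:117969317-117969616, with the motif in capitals.

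Socs3: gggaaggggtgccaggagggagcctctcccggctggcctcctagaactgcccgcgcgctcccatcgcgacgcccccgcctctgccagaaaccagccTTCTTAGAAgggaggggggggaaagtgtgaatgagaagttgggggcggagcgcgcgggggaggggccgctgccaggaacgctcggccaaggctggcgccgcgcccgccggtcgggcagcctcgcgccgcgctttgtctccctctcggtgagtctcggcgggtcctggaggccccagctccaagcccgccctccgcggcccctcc

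The motif begins 154 bases before the start of Socs3. The promoters of Bcl3, Stat3 and Junb, the other genes used to check the labels, held no match in the same window.

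The labels were checked first. Socs3 read 367 (wild type) and 215 (knockout) signal units on the plus-labelled arrays, and 3800.3 and 4551 units on the minus-labelled arrays. Pairs of values below keep this order of genotypes. The 14 other arrays, all labelled with LIF, read between 2628 and 6001 units. The minus-labelled arrays therefore lay inside the range of the arrays labelled with LIF, while both plus-labelled arrays lay below every other array of the series. The difference, minus-labelled less plus-labelled and averaged over the genotypes, was 3.89 ± 0.17 (log2 ± standard error, limma adjusted p = 2.05e-08), or 14.78-fold, and 2 further Socs3 probe sets gave 3.59 and 3.60. Socs3 was known from earlier results of these data to read far lower on the plus-labelled arrays, so its p-value is no independent evidence. The direction is opposite to the one the labels name, and it holds for each genotype (3.37 in wild type, 4.40 in the knockout). In wild type it rests on which unnumbered control is paired: against the other one, the minus-labelled array differed by -0.24 ± 0.24 for Socs3 and 0.39 ± 0.26 for Bcl3 (adjusted p = 0.80 and 0.753), an alternative chosen after seeing the data. Whether these labels were exchanged was not tested; the arrays are described by their labels throughout, and every direction below is drawn from labels that Socs3 goes against.

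Bcl3, an atypical IkB protein and STAT3 target, read 141 and 215 units on the plus-labelled arrays of wild type and knockout, 1200.2 and 1197 on the minus-labelled ones, and 805 to 1571 on the 14 others. Its difference was 2.79 ± 0.18 (adjusted p = 2.29e-06). Stat3, which STAT3 itself induces, read 473 and 351 units on the plus-labelled arrays, 1589 and 1546 on the minus-labelled arrays and 773 to 3021 on the others. Its difference of 1.94 ± 0.44 did not pass the threshold of 0.05 (adjusted p = 0.0727). Of 30 alternatives it passed in 4. It did so without the wild-type control numbered 2 here (0.0383) and without that numbered 3 (0.0378). It also passed with all its probe sets averaged (1.44, 0.00355) and in a fit of the 4 arrays alone. Junb, an AP-1 subunit, read 41.9 and 74.0 units against 239 and 193, with 145 to 667 on the other arrays, a difference of 1.82 ± 0.59 that did not pass (adjusted p = 0.377). Signals under 50 units were set to 50 before log2, so the difference of Junb and of any gene below with such a value is smaller in size than the measured values give. For each of the 4 genes both plus-labelled arrays read below every other array of the series. Over all genes tested, both plus-labelled arrays read below the 4 other controls for 8.03% and above them for 10.4%. The share below every other array of the series, which is a stricter condition, was not counted.

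**Figure D1:**
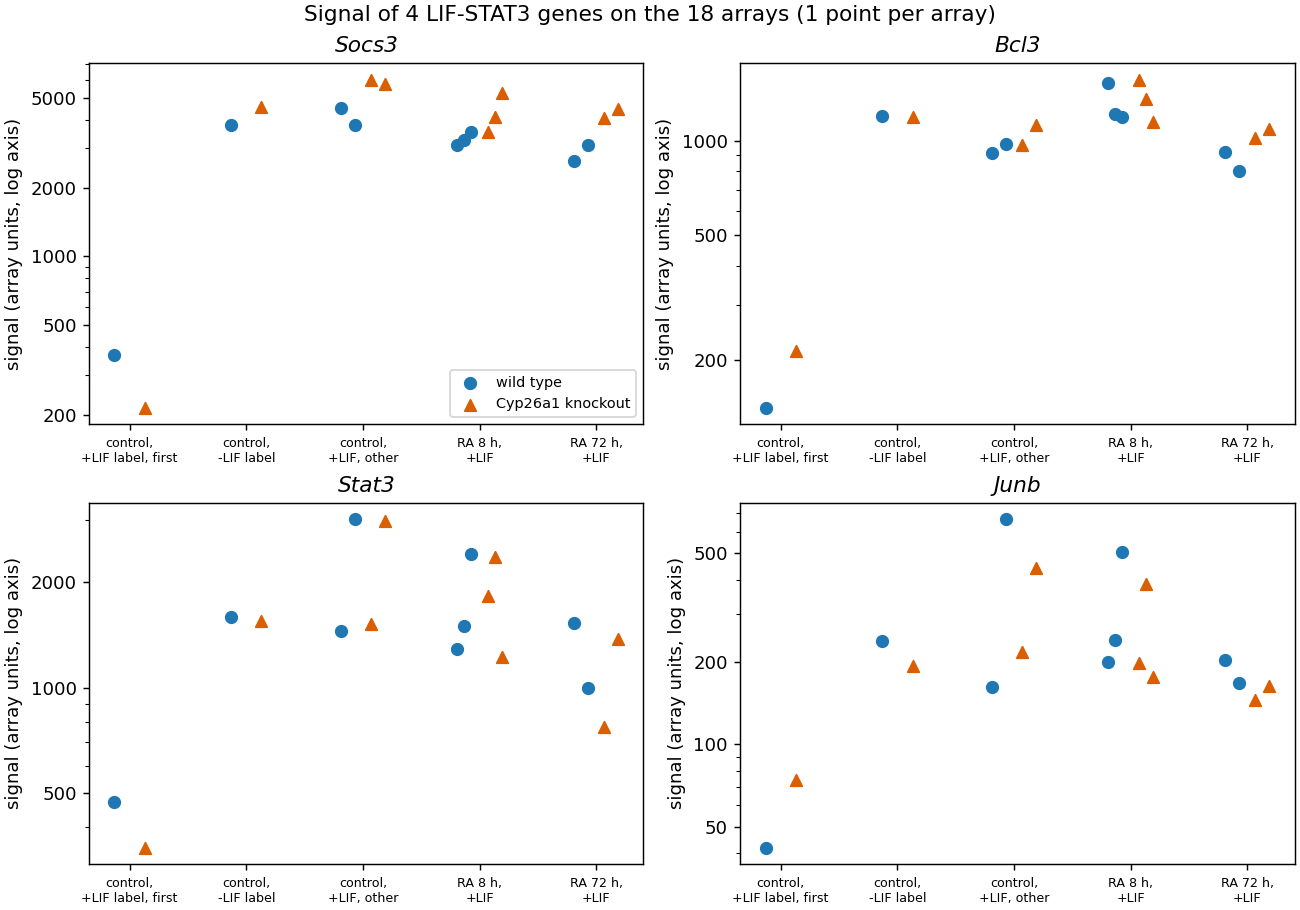
Signal of Socs3, Bcl3, Stat3 and Junb on each of the 18 arrays (array units, log axis; 1 point per array, circles wild type, triangles knockout), arranged by label. The 2 plus-labelled first controls are the lowest points in every panel, and the 2 minus-labelled arrays lie among or near the arrays labelled with LIF.

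The arrays were otherwise alike in overall signal. The median signal of the 18 arrays ran from 54.4 to 75.6 units, and 39.9% to 45.3% of probe sets reached 100 units. Cyp26a1 was dim on all 4 arrays, at 17.5 and 52.6 units on the plus-labelled and 33.7 and 53.8 on the minus-labelled arrays, and was not tested. With 72 h of RA its probe set read up to 3402 units, and knockout arrays reached 3075 units, so a high signal does not exclude the knockout. After 8 h of RA it read 637, 1695 and 691 units in wild type and 193, 216 and 193 in the knockout, without overlap. On the 4 dim arrays the probe set does not check the genotype. The summed signal of 6 ES cell markers (Pou5f1, Sox2, Nanog, Zfp42, Fgf4 and Dppa5a) was 84642 and 96851 units on the plus-labelled arrays, 90669 and 100555 on the minus-labelled arrays, and 89943 to 100821 on the 4 other controls, so the labelled cell type was present on all 4 arrays.

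To place both labelled pairs, each was also compared with the 4 other controls, in the same fit as the main comparison. Between the minus-labelled arrays and the other controls no gene of 10475 tested passed (0% called, limma, smallest adjusted p 0.984, with 398 genes at an unadjusted p under 0.05). Between the plus-labelled arrays and the other controls 176 genes passed (1.68%), of which 48 read higher (0.458%) and 128 lower (1.22%) on the plus-labelled arrays. That count fell to 44 without the plus-labelled wild-type array, 27 without the plus-labelled knockout array, 111 without knockout control 2 and 90 without knockout control 3. Socs3 differed by -4.13 ± 0.15 in the second comparison (adjusted p = 1.28e-09), Bcl3 by -2.52 ± 0.16 (1.31e-06), Stat3 by -2.37 ± 0.38 (0.00554) and Junb by -2.39 ± 0.51 (0.0311). The plus-labelled arrays were kept apart from the other controls because Socs3 was known to read far lower on them. The p-value of Socs3 is thus no independent evidence. Against the same controls the minus-labelled arrays differed by -0.24 ± 0.15 for Socs3, 0.27 ± 0.16 for Bcl3, -0.43 ± 0.38 for Stat3 and -0.57 ± 0.51 for Junb, all with an adjusted p of 0.984. The Stat3 call against the other controls was lost without the plus-labelled array of wild type (0.0604) or of the knockout (0.181). Junb lost it without either of these (0.427 and 0.234), without wild-type control 3 (0.0531) or knockout control 3 (0.108), and without either knockout array of 72 h RA (0.0514 and 0.0511). The 3 comparisons share arrays, so their values stand side by side and are not independent of each other.

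Counting genes at least 2-fold apart gave the same comparison 1 array at a time. In wild type the plus-labelled array differed by 2-fold at 277 genes from the minus-labelled array, and at 450 and 632 genes from controls 2 and 3. The minus-labelled wild-type array differed at 395 and 340 genes from those controls, which differed from each other at 585. In the knockout the plus-labelled array differed at 340 genes from the minus-labelled array and at 416 and 498 from the other controls, while the minus-labelled array differed from them at 198 and 216 genes, and they from each other at 256. The plus-labelled and minus-labelled arrays of wild type thus stood closer to each other than to the other controls. In the knockout the minus-labelled array stood closer to the other controls than to its own pair.

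Across the 10475 genes, 66 differed between the minus-labelled and the plus-labelled arrays (0.63% called). Of these, 54 read higher on the minus-labelled arrays (0.516%) and 12 lower (0.115%), with a median size of 1.34 on the log2 scale, or 2.54-fold. The count depends on the arrays and pairing used: it was 0 in a fit of the 8 controls as labelled (286 at an unadjusted p under 0.05) and 689 in a fit of the 4 arrays alone. With the other unnumbered wild-type control as the pair it was 6, namely Socs3, Bcl3, Gjb5, Prr13, Otx2 and Sox4, and every other call named below was lost. The difference had the same sign in wild type and knockout for all 66, and for 65 of them both arrays of one label lay beyond both arrays of the other; the exception was Prdm14. Over all genes tested, 16.3% lay entirely higher and 15.7% entirely lower on the minus-labelled arrays, and the median difference was -0.0037. The wild-type pair taken alone gave 8 calls, all higher (0.0764%), and the knockout pair 17 (0.162%), of which 15 were higher (0.143%) and 2 lower (0.0191%). These are also the counts left when an array of the other pair is dropped. Called in each pair alone were 7 genes: Bcl3, Gjb5, Lama1, Ly6g6e, Prr13, Socs3 and Xaf1. Over the 66 genes the plus-labelled arrays differed from the 4 other controls by a median size of 1.33 and the minus-labelled arrays by 0.15. The 66 were selected on a comparison that shares arrays with both of these, so the sizes are a description and nothing is read from them.

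Beside Socs3 and Bcl3, the largest differences towards the minus-labelled arrays were those of the following genes. Xaf1, a proapoptotic antagonist of the inhibitor XIAP, read 99.2 and 110.1 units on the plus-labelled arrays, 761 and 718 on the minus-labelled ones and 710.1 to 1039 on the other controls (2.82 ± 0.23, adjusted p = 2.04e-05). Gjb5, which encodes a beta connexin of gap junctions, read 196 and 121 units against 1329 and 798, with 666 to 1017 on the other controls (2.74 ± 0.23, 2.94e-05). Both genes read several-fold lower on the plus-labelled arrays than on any other control. They were chosen on these same plus-labelled arrays, and 8.03% of all genes tested read below the other controls there. Spink1, a secreted trypsin inhibitor, read 199 and 190.1 against 1206 and 953 units (2.46 ± 0.41, 0.0109), and its other controls ranged from 542 to 1421. Lama1, the laminin alpha 1 chain of the embryonic basement membrane, read 410.1 and 272 against 1705 and 1633 units (2.32 ± 0.21, 6.14e-05).

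Ly6g6e, a member of the Ly6 family of membrane-anchored proteins, read 49.7 (under the floor) and 81.6 units against 292 and 289.6 (2.19 ± 0.23, adjusted p = 0.000242). Prr13, a proline-rich nuclear protein, read 566 and 559.9 units against 2118 and 2784 (2.11 ± 0.16, 8.5e-06), and the other controls read 1890.1 to 2702. The non-coding transcript 2310043M15Rik read 151 and 102 units against 518 and 519 (2.06 ± 0.29, 0.00304). Mapt, the microtubule-associated protein tau, read 113 and 96.0 units against 334 and 518 (2.00 ± 0.26, 0.0019). Irak3, an inhibitor of Toll-like receptor signalling, read 269 and 232 against 776 and 903 units (1.74 ± 0.22, 0.00163), and S100a6, a calcium-binding protein, read 522 and 472 against 1859.7 and 1468 (1.74 ± 0.35, 0.0381). In each of these 6 genes the minus-labelled arrays read higher than the plus-labelled arrays of either genotype. The choice of the largest rises required this, and 16.3% of all genes tested lay entirely higher. The S100a6 call was lost when any 1 of 9 arrays outside the comparison was left out (adjusted p up to 0.0613).

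**Figure D2:**
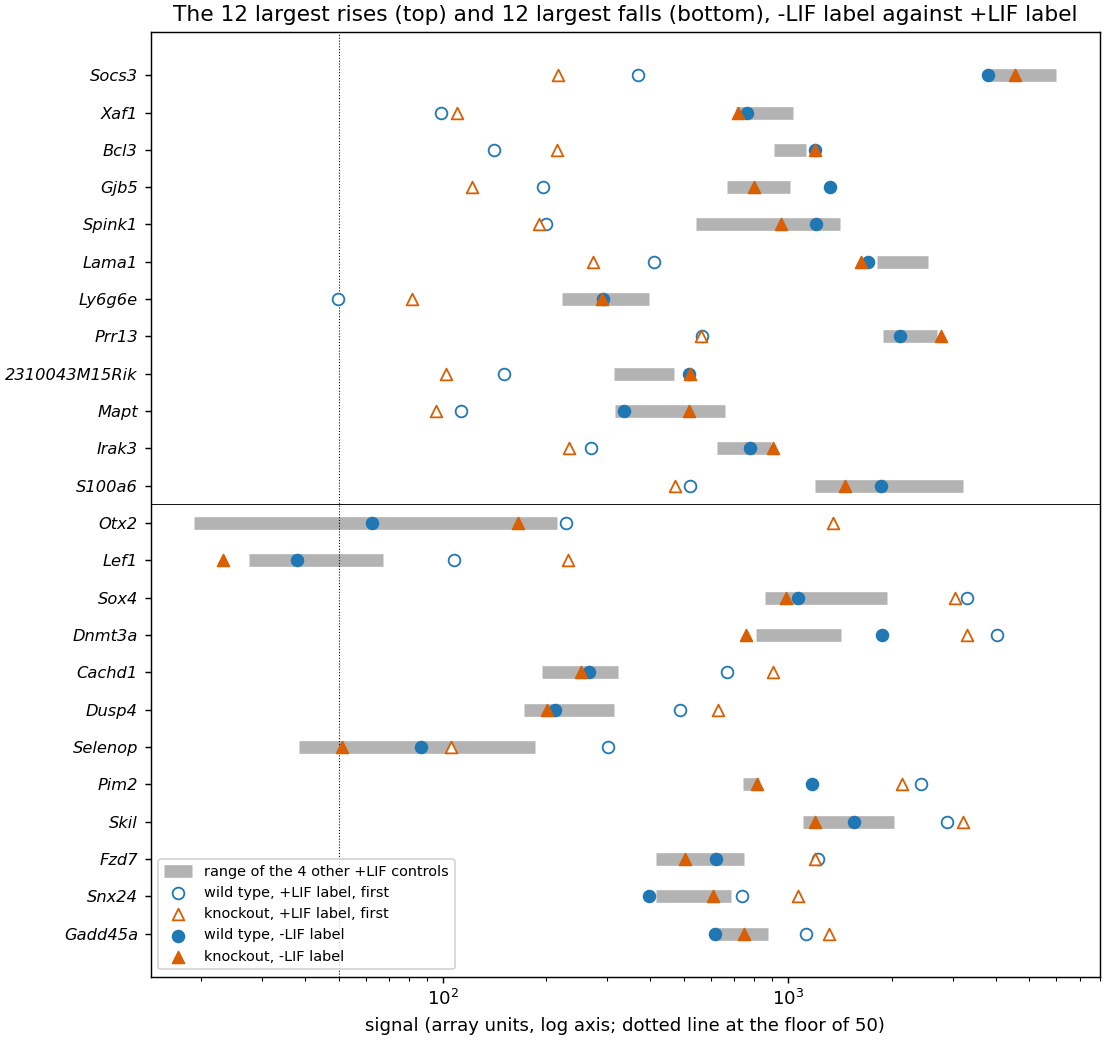
Signal of the 12 largest called rises and 12 largest called falls on the 4 arrays (array units, log axis; open symbols plus-labelled, filled symbols minus-labelled, circles wild type, triangles knockout), with the range of the 4 other controls as a grey bar and the floor of 50 units dotted. For Socs3 the filled symbols stand at 3800.3 and 4551 units and the open ones at 367 and 215, and most filled symbols fall on or near the grey bars.

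Of the genes that read lower on the minus-labelled arrays, 5 belong to the list of primed and formative state genes. Otx2, the homeobox factor that drives exit from the naive state, read 228 and 1352 units on the plus-labelled arrays, and 62.4 and 165 on the minus-labelled arrays (-2.45 ± 0.45, adjusted p = 0.0228). On the 14 other arrays it read at most 215 units, so both plus-labelled arrays, on which it was also chosen, were above all of them. Of all genes tested, 10.4% read above the 4 other controls on both plus-labelled arrays. The share above all 14 was not counted. Lef1, a nuclear effector of Wnt signalling, read 108 and 230.1 units on the plus-labelled arrays and lay below the floor on both minus-labelled ones (37.8 and 23.1 units), so averaged over the genotypes it was at least 3.15-fold lower there (-1.66 ± 0.34, 0.0469). That call was lost without any 1 of 13 arrays outside the comparison, with an adjusted p of up to 0.0754. Sox4, an SRY-box factor, read 3303 and 3061 units against 1070.2 and 989.8 (-1.63 ± 0.25, 0.00647).

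Dnmt3a, a de novo DNA methyltransferase, read 4030.5 and 3303 units on the plus-labelled arrays, 1880.3 and 757 on the minus-labelled ones and 808 to 1425 on the other controls (-1.61 ± 0.20, adjusted p = 0.00118). Its wild-type minus-labelled array thus lay between the plus-labelled arrays and the other controls. Pim2, a serine/threonine kinase, read 2431 and 2145 units against 1173 and 812 (-1.23 ± 0.22, 0.0183). Its other controls spanned 739.6 to 824 units, below the wild-type minus-labelled array.

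The list held 14 tested genes, of which 5 fell and 0 rose, with a median difference of -0.83 against -0.0037 over all genes tested. Lef1, 1 of the 5, was tested only through the arrays on which it read high. Of all genes tested 0.115% fell and 0.516% rose. Against the 4 other controls the plus-labelled arrays, shared with the main comparison, differed by 2.20 (Otx2), 1.85 (Dnmt3a), 1.55 (Lef1), 1.53 (Pim2) and 1.46 (Sox4) on the log2 scale. Among the members not called, differences ran up to 0.28 in Foxd3 and down to -1.01 in Sall2, which were picked here with their values known.

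The other 7 of the 12 falls were those of the following genes. Cachd1, a putative calcium channel regulator, read 667 and 904 units on the plus-labelled and 266 and 252 on the minus-labelled arrays (-1.59 ± 0.18, adjusted p = 0.000783). Dusp4, a nuclear phosphatase that inactivates MAP kinases, read 488 and 626 against 211 and 200.3 units (-1.42 ± 0.25, 0.0171). Selenop, a secreted selenium carrier, read 301 and 106 against 86.4 and 51.3 units (-1.42 ± 0.29, 0.0412), and its plus-labelled knockout array lay within the other controls (38.3 to 185). The label groups did not overlap for any of the 3 genes, which the choice of the 12 falls required. Of all genes tested 15.7% lay entirely lower on the minus-labelled arrays.

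Skil, a repressor of SMAD signalling, read 2897 and 3219 units against 1559 and 1201 (-1.16 ± 0.23, adjusted p = 0.0389). Fzd7, a Wnt receptor, read 1222 and 1195 against 619 and 505 units (-1.11 ± 0.21, 0.0316). Snx24, a sorting nexin, read 739 and 1073 against 395 and 605 (-0.87 ± 0.16, 0.0279), and Gadd45a, a stress-induced growth arrest protein, 1130.3 and 1317 against 614 and 749 (-0.85 ± 0.17, 0.0381). All 4 were higher on each plus-labelled array than on every one of the 4 other controls, as were 10.4% of all genes tested. They were chosen on these same plus-labelled arrays, so nothing is read from this. Leaving out 1 array outside the comparison ended the call of Selenop (10 of the arrays, adjusted p up to 0.067), Skil (10, 0.064), Gadd45a (9, 0.0632) and Fzd7 (2, 0.053).

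Genes of the LIF pathway itself were then examined from the receptor down. Of 20 tested genes for the LIF receptor and JAK-STAT signalling, Socs3 was the single call, and the list's median difference was 0.025. The share called over all genes tested was 0.63%. Lifr, the ligand-binding receptor chain, read 2027 and 1744 units on the plus-labelled and 2073 and 2165 on the minus-labelled arrays (0.17 ± 0.23). Il6st read 778 and 1018 against 851 and 850.4 units (-0.07 ± 0.17), and Jak1, the main kinase on gp130, 1315 and 1233 against 1455 and 1239 (0.08 ± 0.18). These 3 genes, chosen after their values were seen, had an adjusted p of 1 each, and their label groups overlapped for all but Lifr. Leaving Socs3 and Stat3 aside, members of the list ran from -0.35 (Socs2) to 0.60 (Stat5a).

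Of 19 tested genes in the list of classic STAT3 targets, 5 rose and 0 fell on the minus-labelled arrays, with a median of 0.49. The shares over all genes tested were 0.516% and 0.115%, with a median of -0.0037. The list holds the 4 genes of the label check, so its count and median partly restate that check. Beside Socs3 and Bcl3 these were Icam1, Pim3 and Zfp36. Icam1, an adhesion molecule, read 598 and 764 units against 1918 and 2009 (1.54 ± 0.28, adjusted p = 0.023). Pim3, a serine/threonine kinase linked to self-renewal in mouse ES cells, read 3251 and 3128 against 7049 and 7994 units (1.23 ± 0.22, 0.0183), and the other controls were higher still, at 8902 to 11840.1. Zfp36, which promotes decay of AU-rich transcripts, read 113 and 191 against 336 and 309.8 units (1.13 ± 0.22, 0.0323), a call lost without either of 2 arrays outside the comparison (up to 0.0572). Not every target on the list followed: Pim1 (-0.11 ± 0.25) and Myc (-0.02 ± 0.27) did not pass, and Cebpd stood at -1.12 ± 0.28 (0.122), all 3 chosen after their values were seen.

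Of 22 tested genes that respond to LIF in ES cells, 4 rose and 0 fell on the minus-labelled arrays, and the list's median was 0.42. The shares over all genes tested were 0.516% and 0.115%, with a median of -0.0037. Klf4, a naive-state factor downstream of STAT3, read 3154 and 4127 units against 6687 and 11141 (1.26 ± 0.24, adjusted p = 0.0322). Tfcp2l1, another STAT3-dependent factor of the naive network, read 1673 and 1887 against 3501 and 3955 units (1.07 ± 0.19, 0.0195). Smarcd3, a subunit of BAF chromatin remodelling complexes, read 80.3 and 273 against 350.3 and 607 units (1.64 ± 0.30, 0.0252), and Mras, a Ras-related GTPase, 1161 and 1307 against 2656 and 2594 (1.09 ± 0.19, 0.0171). For all 4 genes the minus-labelled arrays lay above the plus-labelled ones without overlap, as for 16.3% of all genes tested. The 4 were named because they passed, and 65 of the 66 called genes had no overlap. Other factors of this list, chosen after their values were seen, did not pass: Tbx3 at 0.99 ± 0.28 (0.204), Klf5 at 0.67 ± 0.33 (0.835), Esrrb at 0.58 ± 0.27 (0.78) and Klf2 at 0.30 ± 0.30 (1).

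Core pluripotency genes held 1 call. Of 21 tested, Prdm14 alone rose, and the median was 0.18. Among all genes tested 0.516% rose. Prdm14, a PR-domain factor that sustains the naive state, read 239 and 686 units on the plus-labelled arrays and 638 and 1205 on the minus-labelled ones (1.11 ± 0.20, adjusted p = 0.0171). Its label groups overlapped because the plus-labelled knockout array read above the minus-labelled wild-type array. Pou5f1, the central pluripotency factor, read 14308 and 13334 against 15341 and 15337 units (0.15 ± 0.20), Sox2 10712 and 12167 against 10788 and 13432 (0.08 ± 0.16), and Nanog 5205 and 5458 against 7332 and 8476 (0.56 ± 0.16, 0.234). None of these 3, chosen after their values were seen, passed, and the label groups of Nanog did not overlap.

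**Figure D3:**
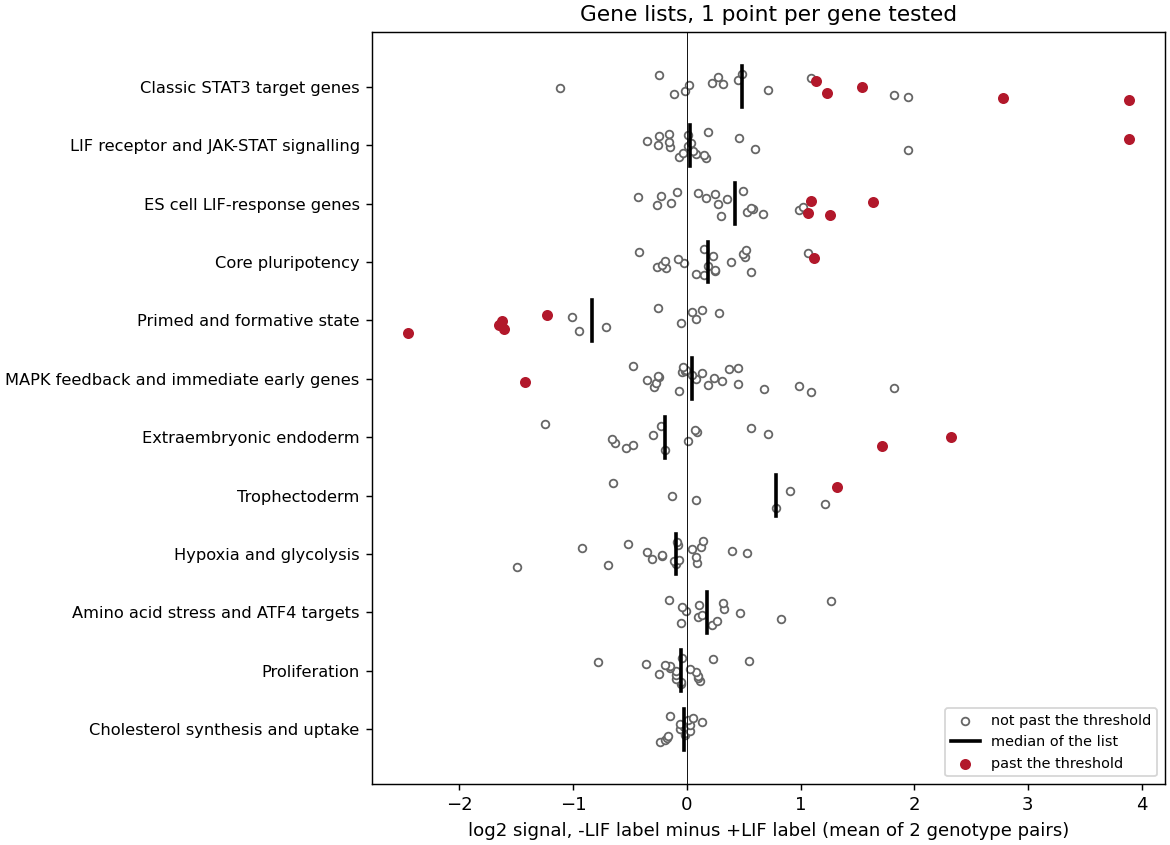
Log2 difference, minus-labelled less plus-labelled arrays averaged over the genotype pairs, for each tested gene of 12 lists (filled points past the threshold, open points not, bar at the list's median). The classic STAT3 list (median 0.49) and the ES cell LIF-response list (0.42) lie mainly to the right, the primed and formative list (-0.83) to the left, and cholesterol synthesis genes stay close to 0. The classic STAT3 list includes the 4 genes of the label check.

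LIF also signals through MAP kinases. The 25 tested genes of MAPK feedback and immediate early response had a median of 0.047, with 1 fall, that of Dusp4, and 0 rises. For this list and the next, the shares over all genes tested were 0.516% rising and 0.115% falling. Extraembryonic endoderm genes held 2 rises among 15 tested (median -0.19): Lama1 and Sox7, an endoderm and endothelial SRY-box factor that read 53 and 34.1 units on the plus-labelled arrays, the second under the floor, and 179 and 161 on the minus-labelled arrays (1.72 ± 0.33, adjusted p = 0.0304). Of the 15 genes 7 had a difference above 0. Sox7 is also among the markers of that cell type, which the cultures could hold. Of 5 such markers tested, Sox7 alone had a difference above 0. Dab2 stood at -0.66 ± 0.66 and Cubn at -0.64 ± 0.59. The summed signal of 8 extraembryonic endoderm markers was 627 and 281 units on the plus-labelled and 430.5 and 381 on the minus-labelled arrays, against 433 to 2028 on the other controls, with Afp under 50 units on all 8 control arrays. The sums overlapped between labels, and their part in the Lama1 and Sox7 differences was not tested. In RNA of whole cultures, fewer cells of a type and less RNA per cell cannot be told apart. Leaving out either of 2 arrays outside the comparison ended the Sox7 call (up to 0.0525).

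Among all genes tested 0.516% rose, the share to set beside the trophectoderm and feeder lists. Among 7 tested trophectoderm genes (median 0.79) Gata2, a zinc-finger factor of trophoblast and blood, rose, from 109 and 77.8 to 217 and 243 units (1.32 ± 0.27, adjusted p = 0.0412). That call was lost without any 1 of 8 arrays outside the comparison (up to 0.0664). Summed over 5 trophectoderm markers the signal was 61.7 and 150 units on the plus-labelled, 108 and 67.6 on the minus-labelled arrays and 45.9 to 139 on the other controls, and Elf5 and Gata3 stayed under 50 units on all 8 controls. Fibroblast feeder markers held 1 rise among 6 tested (median -0.12): Vim, the intermediate filament vimentin, which ES cells also express, at 5933 and 5079.7 against 10142 and 10208 units (0.89 ± 0.18, 0.0371), lost without any 1 of 4 arrays outside the comparison (up to 0.0598). Over 12 feeder markers the summed signal was 1147 and 1069 units on the plus-labelled, 1184 and 897 on the minus-labelled arrays and 924 to 1254 on the other controls. Col1a1, Col3a1, Postn, Dcn, Lum and Fap were under 50 units on all 8 controls.

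No list of lineage genes beyond these held a call. Of 4 tested primitive streak and mesoderm genes, Evx1 stood at 0.32 ± 0.40 and Eomes at -0.30 ± 0.29, each with an adjusted p of 1. Among 6 neural genes Dll1, a Notch ligand, read 227 and 228 units on the plus-labelled and 95 and 64.9 on the minus-labelled arrays, without overlap, but its difference of -1.54 ± 0.41 did not pass (0.165), and Pax6 stood at -0.64 ± 0.64 (1). The 4 neural marker genes summed to 1235 and 815 units on the plus-labelled, 1643 and 1050 on the minus-labelled arrays and 1031 to 1354 on the other controls. Of 3 tested RA-induced genes, Stra8 stood at -0.38 ± 0.32 and Crabp2 at 0.13 ± 0.23 (1 each).

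Metabolic and growth genes gave 1 call. Gadd45a was the single call, a fall, among 13 cell cycle inhibitors and p53 targets, where 0.115% of all genes tested fell. Of 20 hypoxia and glycolysis genes none passed; Bnip3, a mitophagy receptor, read 983 and 3379 units on the plus-labelled and 409 and 1023 on the minus-labelled arrays (-1.49 ± 0.36, adjusted p = 0.0918), and Egln3 stood at -0.92 ± 0.35 (0.535). None of 14 amino acid stress and ATF4 target genes passed, with Nupr1 at 1.27 ± 0.41 (0.37) and Chac1, which degrades glutathione, at 0.83 ± 0.21 (0.132). Among 19 proliferation genes Ccnd2 stood at -0.78 ± 0.48 and Ccnd3 at 0.54 ± 0.31 (0.973 and 0.953), and among 10 BMP and Id genes Id2 at -0.99 ± 0.85 and Id1 at 0.73 ± 0.25 (1 and 0.424). The 15 cholesterol synthesis genes kept within -0.24 (Hmgcs1) and 0.14, with Sqle at -0.19 ± 0.19.

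The genotypes were then compared in their response to the label. The knockout pair's difference less that of the wild-type pair passed for 0 of 10475 genes (0% called, limma, smallest adjusted p 1, 130 genes at an unadjusted p under 0.05). With 1 array per genotype and label in that contrast, its median standard error was 0.44 on the log2 scale, against 0.22 for the mean over genotypes. Socs3 differed by 3.37 in wild type and 4.40 in the knockout, Bcl3 by 3.09 and 2.48, and Otx2 by -1.87 and -3.03.

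**Figure D4:**
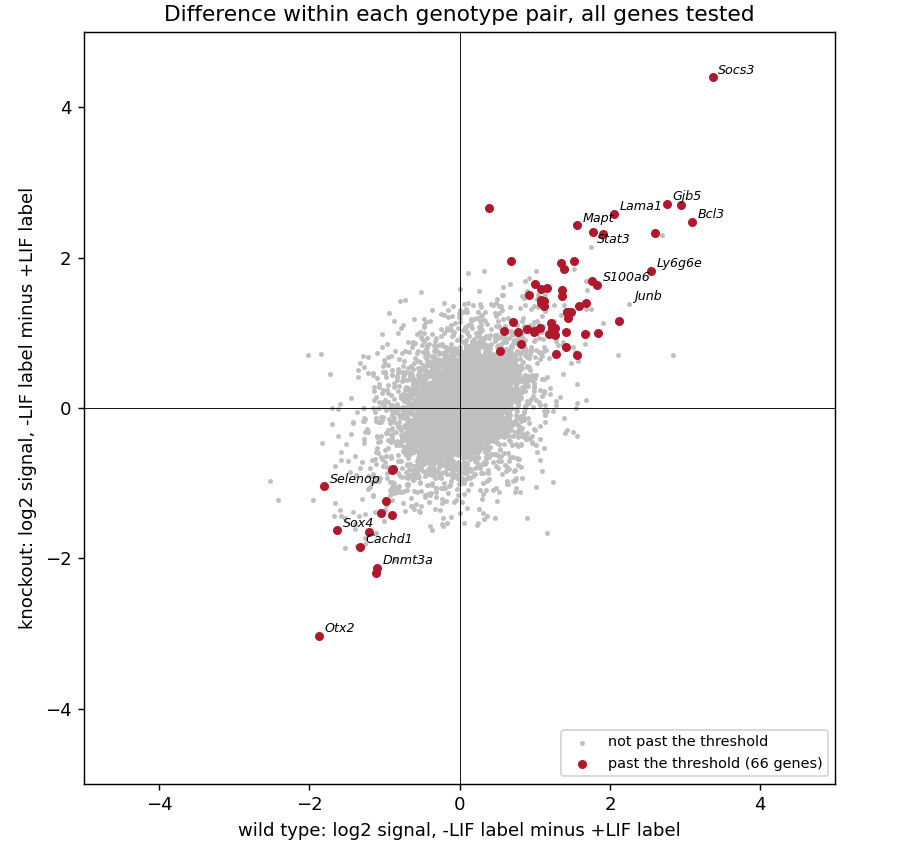
Log2 difference, minus-labelled less plus-labelled, in the wild-type pair (horizontal) and the knockout pair (vertical) for the 10475 genes tested, 1 point per gene, with the 66 called genes in red. Every red point lies in the upper right or lower left quadrant, with Socs3 farthest out at 3.37 and 4.40.

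The STAT palindrome was counted in the promoters of the called genes. Of the 39 genes higher on the minus-labelled arrays for which a promoter was found, 9 held TTCNNNGAA (23.1%), as did 1 of 9 genes that were lower (11.1%), against 7.81% of the 8553 tested genes and 9.55% of all 27025 genes with a promoter. A gene can have several promoters, and 1 match in any of them counted. Per promoter, 18.5% of the 54 of higher genes and 5.26% of the 19 of lower genes matched, against 6.46% for tested genes. The motif is its own reverse complement, so each match counts for both strands, and a match is no evidence of binding. Sites in 3 classic STAT3 targets and in Otx2 are shown because these genes differed in opposite directions. Each is read on the gene's strand with the motif in capitals, at chr11:117969502-117969530 for Socs3, chr9:21015888-21015916 for Icam1, chr7:28379227-28379255 for Zfp36 and chr14:48665204-48665232 for Otx2.

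Socs3: gaaaccagccTTCTTAGAAgggagggggg
Icam1: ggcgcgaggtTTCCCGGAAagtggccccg
Zfp36: acagcctgacTTCTGCGAAccgacagtcg
Otx2: gtagatgggcTTCTTGGAAgaaggggaaa

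The motif begins 154 bases before the start in Socs3, 42 in Icam1, 17 in Zfp36 and 113 in Otx2. The Otx2 match lies in only 1 of its annotated promoters.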

How the data were processed

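The authors deposited 1 table of linear signal intensity, which per the submitters' processing notes came from MAS5. Its version is not given in the sources used here. The trimmed mean was about 500 on every array. Signals were scaled to a trimmed mean of 500 per array (2% cut at each end), floored at 50 and converted to log2. Of 45101 probe sets, 34945 had 1 gene symbol in the platform annotation, 932 several and 9160 were not listed; 34741 matched a RefSeq gene (GRCm38.p6). The probe set with the highest mean stood for a gene, giving 18193 genes. The 10475 with at least 2 of the 8 control arrays at 100 units were tested.

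All 18 arrays were fitted as 10 cells in limma 3.58.1 under R 4.3.3, using lmFit and a trended eBayes (8 residual degrees of freedom). The lone arrays are assumed to vary like the others. Two-sided p-values were adjusted by Benjamini-Hochberg over the whole table, with a threshold of 0.05. "Rose", "fell" and "called" describe genes past it, as minus-labelled less plus-labelled. The labels do not say whether replicates were separate cultures, so p-values may measure technical spread. The fit was tested on simulated data.

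The gene lists (19) and the comparison were chosen with earlier results of these data known. Named were Socs3, Bcl3, Stat3, Junb, Cyp26a1, the 12 largest called rises and falls without overlap, and per list up to 6 called members or otherwise the 2 largest changes. No named gene had another probe set going the opposite way at an unadjusted p under 0.05. Precision is limited by the number of arrays and by signal over background. Alternatives covered the floor, offset, normalization, filter, probe-set rule, variance trend, fold minimum, arrays fitted and each array left out.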

Additional observations from a re-analysis of the deposited data

Results flagged for a closer look

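Eomes, Stra8 and Crabp2 moved in opposite directions in the wild-type and the knockout pair, on 1 array per genotype and label. Eomes differed by 0.21 in wild type and -0.80 in the knockout (knockout less wild type -1.01), Stra8 by 0.09 and -0.85 (-0.95), and Crabp2 by -0.12 and 0.38 (0.51). In the limma test of the difference between genotypes each had an adjusted p of 1.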

How the results depend on the processing

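No paired analysis was possible because the minus-labelled arrays carry no replicate number in the labels, where the number given here only names them; differences were taken within genotype instead. The main comparison gave 66 calls, and 335 with no filter (257 of them genes that fail the filter), 40 without the arrays of 72 h RA, 689 in a fit of the 4 arrays alone, 0 in a fit of the 8 controls as labelled (286 at an unadjusted p under 0.05), 6 with the other unnumbered wild-type control as the pair (4 higher, 2 lower, 66.7% higher), chosen after seeing the data, and 8 to 79 with 1 array left out. Its share of higher calls, 81.8%, was 62.7% with a floor of 100 (37 higher, 22 lower), 69.2% with probe sets averaged (36, 16), 72.4% without trend (42, 16), 50.7% with no filter and 53.7% in the 4-array fit. The plus-labelled arrays against other controls gave 176 calls, and 328 with no filter (172 failing it), 111 with a 2-fold minimum, 117 without the 72 h RA arrays and 27 to 219 with 1 array left out; 192 came from a fit against all 6 other controls, chosen after seeing the data. With no filter the minus-labelled arrays against other controls gave 138 calls (137 failing the filter) and the genotype difference 247 (246 failing it), against 0 otherwise, 0 to 0 with 1 array left out. Signs turned for Evx1 (-0.0278) and Sqle (0.0838) in the fit of the 8 controls as labelled, Sqle (0.0617) with the other unnumbered control, and with 1 array left out for Eomes (-0.80 to 0.21), Stra8 (-0.85 to 0.095) and Crabp2 (-0.12 to 0.38), where leaving out a knockout array of the comparison leaves the wild-type pair; Stat3 turned (0.14) on the minus-labelled arrays against other controls with probe sets averaged. Of the 35 named and called genes, 4 (Bcl3, Gjb5, Prr13 and Socs3) kept the call under all 29 alternatives but the fit of the 8 controls as labelled. The cause of the other changes was not tested. Signal over background limits genes near the floor of 50.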

Other observations

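Further genes that passed in the main comparison were picked here with their values known and stand for no group. Sgk1, a serum- and glucocorticoid-induced kinase, read 5246 and 5949.6 units on the plus-labelled and 11076 and 15669 on the minus-labelled arrays (1.24 ± 0.15, limma adjusted p = 0.00118). Tnfrsf1a, the main receptor of tumour necrosis factor, read 163 and 135 against 439.7 and 327 units (1.35 ± 0.28, 0.0488), and Tnip2, an inhibitor of NF-kB signalling, 42.2 (under the floor of 50) and 79.5 against 134 and 193 (1.35 ± 0.27, 0.0389). Tfeb, a transcription factor of lysosome genes, stood at 1.64 ± 0.27 (0.0101) and its relative Mitf at 1.17 ± 0.21 (0.0175).

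Lmna, which encodes lamin A and C, read 385 and 418 units against 988 and 1179 (1.43 ± 0.18, adjusted p = 0.00163). Fblim1, a filamin-binding adhesion protein, stood at 1.42 ± 0.20 (0.00365) and Tgm2, a protein-crosslinking transglutaminase, at 1.62 ± 0.25 (0.00606), with the knockout's plus-labelled array under the floor at 42.6 units. Cavin1, a coat protein of caveolae, read 600.4 and 429 units on the plus-labelled, 1343 and 1298 on the minus-labelled arrays and 747 to 918 on the 4 other controls (1.38 ± 0.24, 0.0144), so the other controls lay between the label groups. Ypel2 differed by 0.39 in the wild-type pair and 2.66 in the knockout pair (1.52 ± 0.25, 0.00982).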
